A study of Mus musculus with 16 samples.

Results

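Conjugating (phase II) enzymes attach a polar group to drugs, hormones, bile acids and breakdown products, so that these leave the cell through export pumps. Glutathione S-transferases (Gst genes) use the tripeptide glutathione, UDP-glycosyltransferases (Ugt genes) mostly use glucuronic acid, and sulfotransferases (Sult genes) use sulfate from the donor PAPS. In liver, many of these genes are known to respond to nuclear receptors that sense foreign chemicals and fatty acids, such as CAR, PXR and PPARA, to the aryl hydrocarbon receptor, to the stress factor NRF2 and to growth hormone. The genes described here are the protein-coding rows of the count table named Gsta, Gstk, Gstm, Gsto, Gstp, Gstt or Gstz with a number, or Ugt or Sult with a number. They are 65 of 53465 genes: 22 Gst, 22 Ugt and 21 Sult genes in 23 subfamilies.

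Liver RNA was sequenced from 16 C57BL/6 mice aged 29 to 30 weeks, in 4 groups of 4. CD_vehicle mice ate the control diet (CD) and received vehicle, CD_PFOA mice ate the control diet and received perfluorooctanoic acid (PFOA), a fluorinated fatty acid analog used in industry, and HFD_vehicle and HFD_PFOA mice ate the high-fat diet (HFD) with vehicle or PFOA. The diets ran for 16 weeks before dosing and through the 8 weeks of dosing. The dose, the vehicle and the sex of the mice could not be read from the labels used here, and the diet stands as the model of fatty liver in this series. The comparisons ask what PFOA does in lean and in fatty liver, what the diet does alone, and whether the PFOA effect differs between diets. Libraries held 14456524 to 25778125 counts, of which the 65 genes took 0.712 to 1.02%. Values are counts per 1000000 of the TMM-scaled library (CPM), given in the order of libraries 1 to 4 of a group or as mean ± SD (n = 4), and fold changes are log2 ± SE.

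A gene was tested where enough libraries had counts (edgeR's default filter), which 14998 genes of the table passed. Of the 65 genes, 45 passed (20 Gst, 17 Ugt and 8 Sult) and 20 did not. Among those 45, 37 had at least 10 counts in every library of all groups; Gsta1, Gstp2, Sult1e1, Sult5a1, Ugt1a7c, Ugt2b37, Ugt2b38 and Ugt8a did not. Gsta1 reached 10 counts throughout CD_PFOA and HFD_vehicle alone, and Sult1e1 throughout HFD_vehicle alone, so these 2 entered the test through the groups in which they are high. The genes not tested had at most 71 counts over all libraries. They were Gsto2, Gstt4, Ugt1a2, Ugt1a8, Ugt1a10, Ugt2a1, Ugt2a2, Sult1c1, Sult2a1 to Sult2a6, Sult2b1, Sult3a1, Sult3a2, Sult4a1, Sult6b1 and Sult6b2, and 5 of them (Ugt2a1, Ugt2a2, Sult1c1, Sult2a4 and Sult6b2) had 0 counts in every library. Among the rest, Sult3a1 had 36 counts spread over all 4 CD_vehicle libraries, 3 in CD_PFOA, 6 in HFD_vehicle and 0 in HFD_PFOA. Sult2a6 had 24 counts over all 4 CD_PFOA libraries, 5 in HFD_PFOA and 0 in both vehicle groups.

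Some libraries stood apart from their group. Relative to the other libraries of the group, 7 of the 45 tested members were off by over 1 log2 unit in CD_vehicle 4, 5 in CD_vehicle 1 and 8 in HFD_PFOA 1, against 1 to 3 in each of the other 13 libraries. Over all genes, CD_vehicle 1 differed most from the other libraries of its group, with values given under the processing of the data. A list of 20 male-biased liver genes, which growth hormone is known to control, had a median deviation of -0.82 in CD_vehicle 4 and 0.85 in HFD_PFOA 1, and it lay at -0.44 and -0.54 in HFD_vehicle 3 and 4. All 10 hepatocyte markers were detected in every group, with a summed level of 94400 to 134962 CPM in CD_vehicle and 57645 to 76203 in CD_PFOA, against 77976 to 90968 in HFD_vehicle and 51042 to 62336 in HFD_PFOA. In such bulk tissue, fewer cells of a type and less RNA per cell cannot be told apart. The 15 macrophage and Kupffer cell markers (Itgam at 0) summed to 306 to 610.5 CPM in CD_vehicle and 256 to 611 in CD_PFOA, against 664 to 964 in HFD_vehicle and 449 to 959 in HFD_PFOA. The 10 B cell markers (none at 0) summed to 19.1 to 653 CPM in CD_vehicle and to 34.6 to 71.4 in the other groups.

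With PFOA, the RNA levels of some conjugating enzymes rose and those of others fell, rather than all moving one way. On the control diet, 11 of the 45 tested members rose and 9 fell (44.4%), where 24.4% of all 14998 genes were called, 11.8% higher and 12.6% lower. On the high-fat diet 9 rose and 9 fell (40%), against 16.5% of all genes, 8.60% higher and 7.91% lower. The median log2 fold change of the tested members was -0.09 on the control diet and -0.13 on the high-fat diet, beside -0.0024 and 0.0075 for all genes. Called means an adjusted p under 0.05 in edgeR's quasi-likelihood test. The 4 libraries of one group lay wholly above or below the 4 of the other for 16 of 45 members with PFOA on the control diet (22.7% of all genes), 22 on the high-fat diet (25.3%), 9 with the diet under vehicle (14.5%) and 2 with the diet under PFOA (7.68%). Among the 37 members with at least 10 counts in every library, 10 rose and 9 fell on the control diet and 9 rose and 8 fell on the high-fat diet, the other calls being Gsta1 and Sult1e1. By family, 7 Gst genes rose and 3 fell on the control diet, 4 Ugt rose and 3 fell, and 0 Sult rose and 3 fell. In high-fat livers the counts were 4 and 3 for Gst, 5 and 4 for Ugt, and 0 and 2 for Sult.

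**Figure D1:**
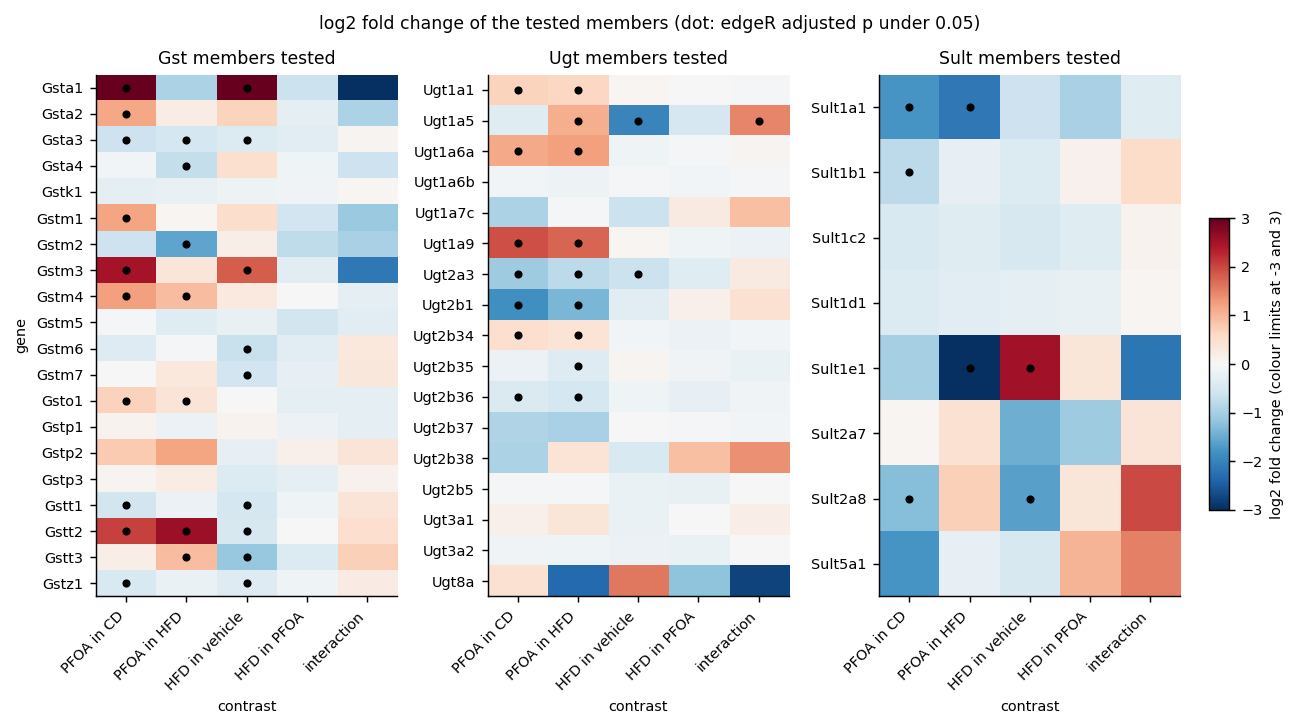
Log2 fold change of the 45 tested members (rows, by family) in each of 5 contrasts (columns): red is higher, blue lower, and a black dot marks an edgeR adjusted p under 0.05. Dots fill the first 2 columns in both colours (20 and 18 members), 13 stand in the third, 0 in the fourth, and 1 (Ugt1a5) in the interaction.

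The 2 PFOA comparisons use different mice, and 12 members were called in the same direction on both diets, none in opposite directions. Those that rose on both were Gstm4, Gsto1, Gstt2, Ugt1a1, Ugt1a6a, Ugt1a9 and Ugt2b34, which is 63.6% of the members that rose on the control diet and 77.8% of those that rose on the high-fat diet. Those that fell on both were Gsta3, Sult1a1, Ugt2a3, Ugt2b1 and Ugt2b36, which is 55.6% of each list. Over all tested genes, 915 rose on both diets, which is 51.9% of those that rose on the control diet and 70.9% of those that rose on the high-fat diet. Another 859 fell on both (45.4% and 72.4%), and 8 were called in opposite directions. Whether the members' shares differ from these was not tested.

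**Figure D2:**
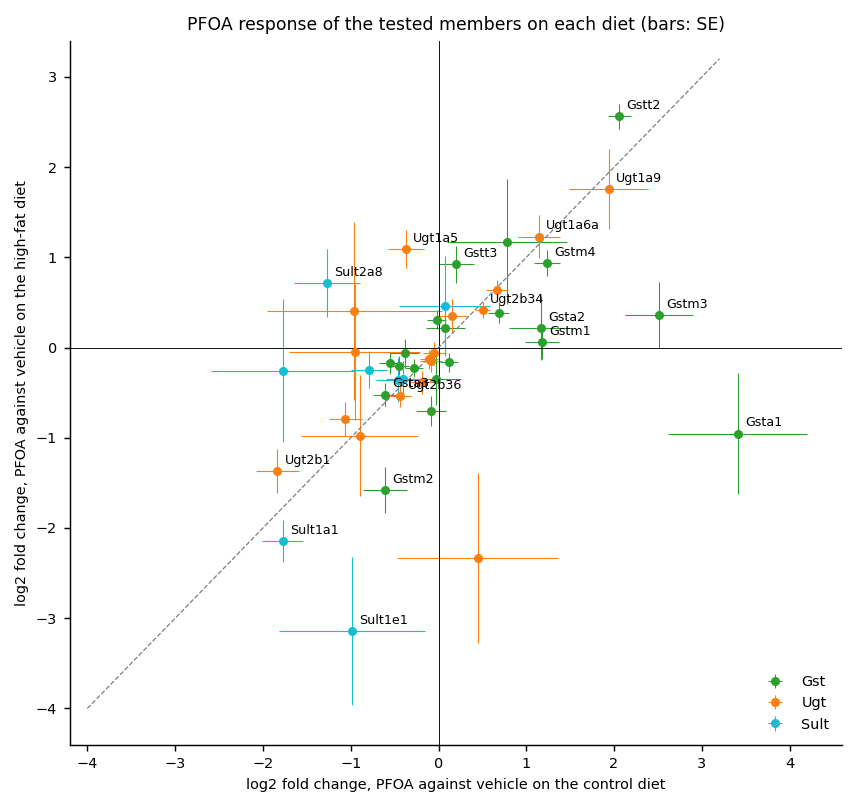
PFOA log2 fold change of each tested member on the control diet (x axis) and on the high-fat diet (y axis), with bars for the SE, coloured by family, and a dashed line of equal change. Gstt2, Ugt1a9 and Ugt1a6a lie near the line at upper right, Sult1a1 and Ugt2b1 near it at lower left, while Gsta1, Gstm3 and Gstm1 lie to the right of 0 with values between -0.95 and 0.36 on the high-fat axis.

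Among the glutathione transferases, the theta-class gene Gstt2 had the smallest p of all members on both diets. Gstt2 stood at 21.4, 30.6, 32.9 and 31.95 CPM in CD_vehicle and 128, 117.5, 114 and 128 in CD_PFOA, against 23.2, 16.7, 21.1 and 22.03 in HFD_vehicle and 145, 129.5, 109.9 and 107 in HFD_PFOA. No PFOA library came near a vehicle library on either diet, and the PFOA libraries of the 2 diets overlapped each other. The rise was 4.17-fold on the control diet (log2 2.06 ± 0.14, edgeR adjusted p = 1.29e-09) and 5.91-fold on the high-fat diet (log2 2.56 ± 0.14, edgeR adjusted p = 1.11e-10). On the same stretch of chromosome 10, Gstt3 rose from 35.6 ± 4.035 to 67.6 ± 8.03 CPM on the high-fat diet (log2 0.92 ± 0.21, edgeR adjusted p = 0.0032), while on the control diet it measured 78.3 ± 25.4 and 90.0 ± 25.6 CPM (log2 0.20 ± 0.20, edgeR adjusted p = 0.517). Gstt1 in the same cluster, known for conjugating small halogenated molecules, fell on the control diet from 255 ± 45.9 to 173 ± 26.9 CPM (log2 -0.56 ± 0.12, edgeR adjusted p = 0.00198) and had a log2 fold change of -0.17 ± 0.12 on the high-fat diet. The 3 tested genes of the cluster thus carried different patterns, and Gstt4, which lies between Gstt1 and Gstt2, was too low to be tested.

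The mu class (Gstm) holds 7 genes side by side on chromosome 3, all tested, and 3 of them rose with PFOA on the control diet while 0 fell. Gstm1 was the member with the highest level per exon length, at 1584 CPM per kilobase of exon over all libraries, ahead of Gsta3 at 279. Gstm1 stood at 997, 1436, 1608 and 1962 CPM in CD_vehicle and 2624, 3420, 3725 and 3780 in CD_PFOA, against 2201, 1735, 2470 and 2302 in HFD_vehicle and 1689, 3041, 1937 and 2411 in HFD_PFOA. All 4 CD_PFOA libraries were above all 4 CD_vehicle libraries, whereas the groups on the high-fat diet overlapped. Gstm1 rose 2.26-fold on the control diet (log2 1.17 ± 0.19, edgeR adjusted p = 0.000139), and on the high-fat diet the log2 fold change was 0.06 ± 0.19, edgeR adjusted p = 0.891. With this rise Gstm1 went from 28.7% to 49.8% of the summed Gst CPM on the control diet, and it made up 40.8% and 44.0% in the high-fat groups.

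Gstm3, another mu-class enzyme, followed the same order of groups with a wider span. Gstm3 stood at 36.9, 55.4, 74.85 and 162 CPM in CD_vehicle and 341.5, 429.6, 476 and 624 in CD_PFOA, against 250.4, 222.1, 300.0 and 387 in HFD_vehicle and 163, 568, 312 and 443 in HFD_PFOA. The CD_vehicle libraries were the 4 lowest of all 16, with HFD_PFOA 1 level with CD_vehicle 4. The rise on the control diet was 5.68-fold (log2 2.51 ± 0.39, edgeR adjusted p = 7.05e-05), and the high-fat value was log2 0.36 ± 0.37, edgeR adjusted p = 0.587. Gstm4 rose on both diets, from 64.5 ± 14.5 to 151 ± 20.5 CPM (log2 1.23 ± 0.15, edgeR adjusted p = 3.55e-06) and from 79.15 ± 12.8 to 151 ± 13.1 CPM (log2 0.93 ± 0.15, edgeR adjusted p = 0.000114). Of the stretches of 50 bases (50-base words) in the transcripts, 18.9% of those of Gstm1 and 28.8% of those of Gstm3 also occur in another gene, against 0% for Gstm4, so part of the reads of the first 2 cannot be placed by sequence alone.

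Gstm2, which lies between Gstm3 and Gstm1, went the other way. Gstm2 stood at 43.2, 64.8, 83.1 and 97.5 CPM in CD_vehicle and 24.8, 42.8, 63.8 and 57.8 in CD_PFOA, against 88.4, 76.6, 84.3 and 82.6 in HFD_vehicle and 18.6, 32.8, 26.6 and 33.1 in HFD_PFOA. On the high-fat diet the groups were far apart and Gstm2 fell 2.985-fold (log2 -1.58 ± 0.25, edgeR adjusted p = 0.000165), while on the control diet they overlapped (log2 -0.61 ± 0.25, edgeR adjusted p = 0.0832). The test of the difference between diets gave log2 -0.97 ± 0.35, edgeR adjusted p = 0.276. Gstm5, Gstm6 and Gstm7 were not called with PFOA on either diet in the edgeR fit reported here, with log2 fold changes from -0.39 to 0.31. DESeq2 called Gstm7 on the high-fat diet, as did edgeR with robust dispersion or with only the 2 groups compared in the fit. On the control diet, edgeR called Gstm6 with no filter on low counts, and without CD_vehicle 1 alone or together with CD_vehicle 4. Summed over the 7 genes, Gstm CPM was 1950 ± 526 in CD_vehicle and 4251 ± 671 in CD_PFOA, against 2779 ± 376 in HFD_vehicle and 2980 ± 792.5 in HFD_PFOA, without overlap between the first 2 groups.

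**Figure D3:**
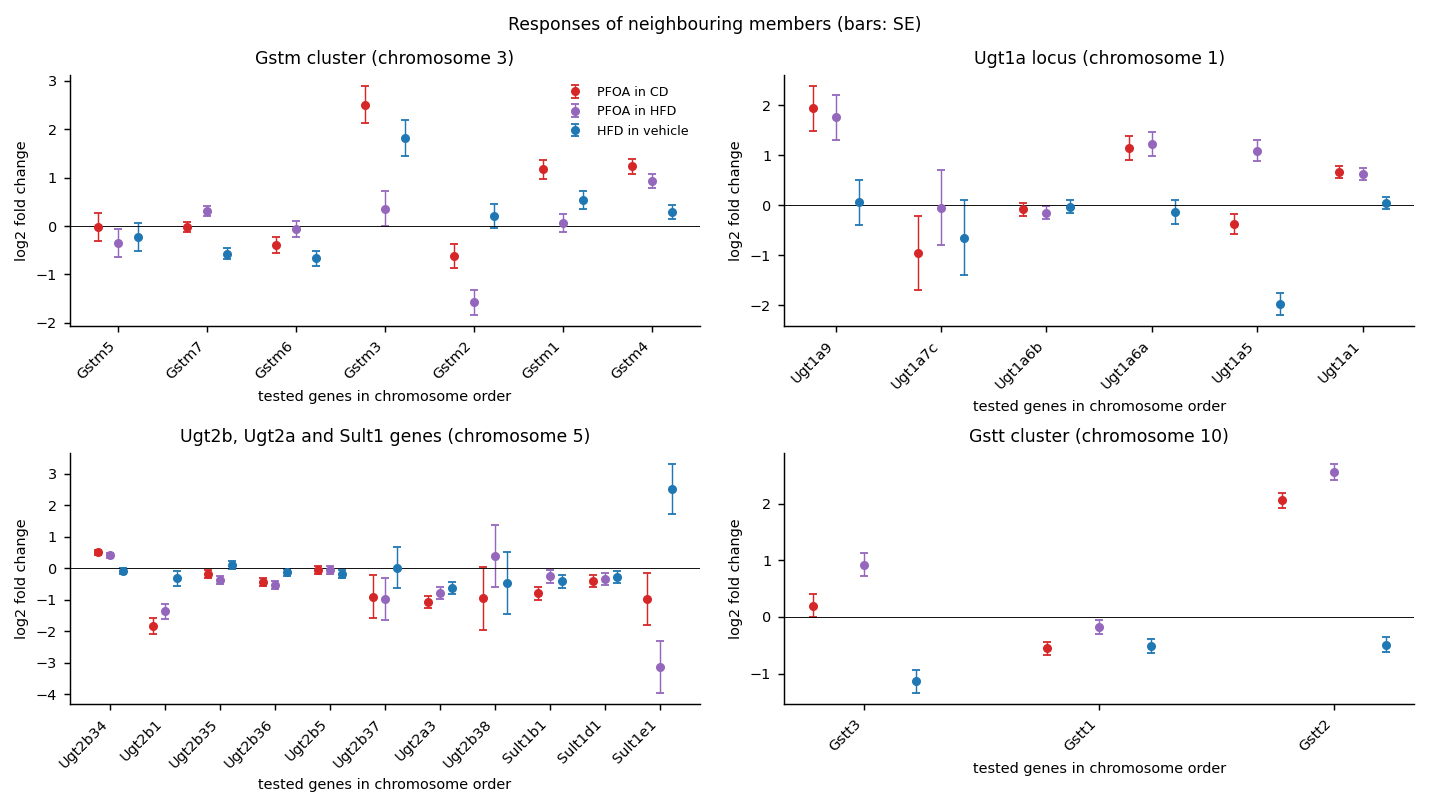
Log2 fold change (y axis, bars: SE) of tested members in their order along 4 gene clusters (x axis) for PFOA on the control diet (red), PFOA on the high-fat diet (purple) and the high-fat diet under vehicle (blue). In the Gstm cluster, Gstm3 at 2.51 and Gstm2 at -0.61 (PFOA on the control diet) stand side by side, and at the Ugt1a locus Ugt1a5 alone has a red point below and a purple point above 0 by more than its SE.

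The alpha class split as well. Gsta3, the alpha-class gene with the highest level per exon length, whose enzyme is known in mice for clearing aflatoxin epoxide, fell on both diets. Gsta3 stood at 1287, 1937, 1978 and 1428 CPM in CD_vehicle and 959.9, 1071, 1137 and 1163 in CD_PFOA, against 1323, 1173, 1379 and 1083 in HFD_vehicle and 956, 919, 797 and 781 in HFD_PFOA. Neither diet had an overlap between its vehicle and PFOA libraries, and the falls were 1.53-fold (log2 -0.61 ± 0.13, edgeR adjusted p = 0.00158) and 1.44-fold (log2 -0.52 ± 0.13, edgeR adjusted p = 0.00793). Gsta4, which conjugates the lipid peroxidation product 4-hydroxynonenal, fell on the high-fat diet from 70.5 ± 12.9 to 43.3 ± 7.235 CPM (log2 -0.70 ± 0.17, edgeR adjusted p = 0.00641), with -0.09 ± 0.17 on the control diet. The hepatocyte markers also fell in these comparisons (8 of 10 called lower on the control diet and 9 of 10 on the high-fat diet, median log2 fold change -0.70 and -0.50). Of all genes, 24.4% and 16.5% were called in these 2 comparisons. On the high-fat diet the cholangiocyte markers summed to 78.1 to 104 CPM with PFOA, against 142 to 276 with vehicle, and the stellate markers to 657 to 877, against 882 to 959. The part of these markers in the members' values was not tested.

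Gsta1 and Gsta2, the low alpha-class genes known as NRF2 targets, rose on the control diet. Gsta1 stood at 0.2085, 0, 0.468 and 0 CPM in CD_vehicle and 1.08, 1.57, 2.19 and 2.45 in CD_PFOA, against 1.24, 1.58, 2.93 and 3.295 in HFD_vehicle and 0.339, 1.965, 0.739 and 1.61 in HFD_PFOA. The 4 CD_vehicle libraries, with 0 in 2 of them, lay below all CD_PFOA libraries, so the fitted log2 fold change (3.41 ± 0.79, edgeR adjusted p = 0.00347) rests on few reads in the vehicle group and on a gene that entered the test through the groups in which it is high. Gsta2 rose from 7.44 ± 5.08 to 16.6 ± 2.62 CPM (log2 1.16 ± 0.36, edgeR adjusted p = 0.0227). On the high-fat diet the values were -0.95 ± 0.67 for Gsta1 and 0.22 ± 0.35 for Gsta2, neither called. Of the 50-base words of Gsta1, 90.5% also occur in other genes, 36.0% of those of Gsta2 occur in Gsta1, and the sources used here do not say how shared reads were counted, so both are uncertain. Without CD_vehicle 3 the control-diet value of Gsta1 became 4.58 (edgeR adjusted p = 0.00108). The call of Gsta2 was lost without CD_vehicle 4 or without CD_PFOA 3.

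Among the single-gene and smaller classes, the omega-class gene Gsto1, a thioltransferase, rose on both diets (log2 0.69 ± 0.12 and 0.39 ± 0.12, edgeR adjusted p = 0.000211 and 0.027). Its control-diet level went from 62.55 ± 7.525 to 101 ± 13.5 CPM, and its high-fat level from 62.4 ± 4.89 to 81.6 ± 11.6 CPM, a call lost without any 1 of HFD_vehicle 1, 2 and 4 and HFD_PFOA 1 and 2. Gstz1, which also serves tyrosine breakdown as maleylacetoacetate isomerase, fell on the control diet (log2 -0.45 ± 0.11, edgeR adjusted p = 0.00396) from 850.4 ± 143 to 624 ± 35.3 CPM. The pi-class genes Gstp1, Gstp2 and Gstp3 and the kappa-class gene Gstk1, found in mitochondria and peroxisomes, were called in no comparison of the edgeR fit reported here. Other edgeR settings called Gstk1 with PFOA, among them robust dispersion on the control diet and library-total scaling on the high-fat diet. Gstp3 was called with PFOA on the high-fat diet without HFD_PFOA 1. Gstp1 was called for the diet under vehicle with library-total scaling. For Gstp1, at 141 ± 9.72 CPM in CD_vehicle, the 95% interval of the log2 fold change with PFOA ran from -0.11 to 0.34 on the control diet and from -0.39 to 0.06 on the high-fat diet.

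The Ugt1a genes are alternative first exons of 1 locus on chromosome 1, spliced to the same downstream exons, and UGT1A1 is the enzyme that glucuronidates bilirubin. Of 9 Ugt1a members, 6 were tested; 3 rose with PFOA on the control diet, 4 on the high-fat diet, and 0 fell. Because the genes share 50% or more of their exon bases, a read in the shared exons cannot be given to one of them, and their levels are not compared per length. For the 4 Ugt1a genes called with PFOA, the 250 bases before the RefSeq start (GRCm38.p6, plus strand, 5′ to 3′) are shown because these starts of the same locus responded in different ways. Each window lies in an intron of the Ugt1a genes that begin upstream, and no GENCODE exon overlaps it. Capitals mark 2 motifs found on either strand, the half-site of the liver factor HNF1 (GTTAAT, here as its reverse complement ATTAAC) and the core of the aryl hydrocarbon receptor element (GCGTG).
Ugt1a9: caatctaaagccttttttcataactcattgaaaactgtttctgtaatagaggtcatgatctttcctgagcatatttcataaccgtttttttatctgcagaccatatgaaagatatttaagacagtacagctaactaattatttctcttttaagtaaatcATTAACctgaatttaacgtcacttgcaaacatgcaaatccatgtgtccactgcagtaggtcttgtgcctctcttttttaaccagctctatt
Ugt1a6a: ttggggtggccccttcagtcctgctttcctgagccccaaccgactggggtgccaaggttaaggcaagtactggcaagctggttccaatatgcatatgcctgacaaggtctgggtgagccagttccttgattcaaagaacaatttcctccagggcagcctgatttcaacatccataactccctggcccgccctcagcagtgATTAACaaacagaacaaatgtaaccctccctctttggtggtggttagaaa
Ugt1a5: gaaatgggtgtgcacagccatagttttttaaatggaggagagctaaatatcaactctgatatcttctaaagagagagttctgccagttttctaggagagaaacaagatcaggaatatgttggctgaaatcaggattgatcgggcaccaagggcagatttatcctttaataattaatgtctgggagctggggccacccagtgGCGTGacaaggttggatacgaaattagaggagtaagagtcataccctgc
Ugt1a1: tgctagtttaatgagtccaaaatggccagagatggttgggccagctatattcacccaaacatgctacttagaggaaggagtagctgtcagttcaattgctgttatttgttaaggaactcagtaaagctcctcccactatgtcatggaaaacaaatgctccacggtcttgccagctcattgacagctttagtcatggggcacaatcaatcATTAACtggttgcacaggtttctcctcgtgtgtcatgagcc
They lie, in this order, at chr1:88070529-88070778, chr1:88134559-88134808, chr1:88165762-88166011 and chr1:88211709-88211958. The HNF1 half-site begins 91 bases before the start of Ugt1a9, 50 before Ugt1a6a and 41 before Ugt1a1, and is not in the window of Ugt1a5, which instead holds GCGTG 49 bases before its start. The half-site did not go with one direction of change. The other tested members that hold it are Gsta3, Sult1a1 and Ugt2a3, which fell on both diets, and Sult1d1 and Ugt3a1. Neither Sult1d1 nor Ugt3a1 was called in the edgeR fit reported here. At the same locus the window of Ugt1a10, too low to be tested, holds it 2 times. GTTAAT was found in 6.43% of 32851 RefSeq promoter windows of the same length and in 8 of the 40 tested members with a window, and GCGTG in 28.2% and in 8 of 40. The windows are 43.0 to 48.4% identical in pairwise alignment. Of the other motifs searched on both strands, the NRF2 core TGACNNNGC was in 10.2% of all windows and in 2 of 40 members (Gsta3 and Gstm5), and the STAT5 site TTCNNNGAA was in 7.02% and in 2 of 40 (Gsta1 and Ugt1a6a). A direct repeat of AGGTCA with 1 base between, bound by PPARA, and a direct repeat of AGTTCA with 4 bases between, a form of the repeat bound by CAR and PXR, were in 0 of 40 and in 0.0335% and 0.00913% of all windows. The motifs shown in capitals do not overlap another motif searched. A match describes letters in a window and is not evidence of binding.

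Ugt1a9, which conjugates phenols, had the largest Ugt rise. Ugt1a9 stood at 3.88, 8.11, 10.3 and 30.5 CPM in CD_vehicle and 33.1, 23.7, 69.5 and 75.9 in CD_PFOA, against 15.3, 12.9, 14.7 and 12.3 in HFD_vehicle and 43.25, 34.2, 70.2 and 38.6 in HFD_PFOA. On the high-fat diet every PFOA library was above every vehicle library, while on the control diet CD_vehicle 4 reached into the PFOA range, above CD_PFOA 2. The rise was 3.83-fold (log2 1.94 ± 0.45, edgeR adjusted p = 0.00328) and 3.38-fold (log2 1.76 ± 0.45, edgeR adjusted p = 0.00914), and without CD_vehicle 4 the first became log2 2.77 (edgeR adjusted p = 1.52e-05). Ugt1a6a, an enzyme for planar phenols, rose from 3.88 ± 0.994 to 8.565 ± 2.135 CPM on the control diet (log2 1.14 ± 0.24, edgeR adjusted p = 0.00147) and from 3.56 ± 0.928 to 8.30 ± 1.22 CPM on the high-fat diet (log2 1.23 ± 0.24, edgeR adjusted p = 0.00118). Ugt1a1 rose from 143 ± 21.5 to 227.4 ± 21.55 CPM and from 148 ± 16.5 to 229.3 ± 32.5 CPM (log2 0.67 ± 0.12 and 0.63 ± 0.12, edgeR adjusted p = 0.000388 and 0.000934). Ugt1a6b and Ugt1a7c were not called by edgeR with PFOA.

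In the edgeR fit, 1 member, Ugt1a5, was called for a PFOA effect that differs between diets, against 3 members with DESeq2, 6 with no filter on low counts and 0 with robust dispersion, all on the same libraries. Ugt1a5 stood at 110.4, 124, 118 and 135 CPM in CD_vehicle and 61.7, 88.15, 125 and 102 in CD_PFOA, against 48.8, 21.8, 24.8 and 28.3 in HFD_vehicle and 57.1, 66.1, 70.7 and 70.3 in HFD_PFOA. Control-diet libraries with and without PFOA overlapped, HFD_vehicle libraries were the 4 lowest of all 16, and HFD_PFOA libraries lay above them. PFOA raised Ugt1a5 2.13-fold on the high-fat diet (log2 1.09 ± 0.21, edgeR adjusted p = 0.000958), against log2 -0.37 ± 0.20, edgeR adjusted p = 0.21 on the control diet. The difference between the 2 effects was log2 1.46 ± 0.29 (95% interval 0.82 to 2.10, edgeR adjusted p = 0.0418), where 0.207% of all genes were called (0.0667% higher and 0.140% lower). This call was lost with library-total scaling (edgeR adjusted p = 0.0538) and without any 1 of 12 libraries (all but CD_vehicle 1, CD_vehicle 4, CD_PFOA 3 and HFD_vehicle 1), with values from 1.30 to 1.52 and adjusted p up to 0.12 (without HFD_vehicle 4). Of the 50-base words of Ugt1a5, 64.0% also occur in Ugt1a2, which uses the same downstream exons.

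The Ugt2b genes of chromosome 5, whose enzymes glucuronidate steroids, bile acids and drugs, carried the falls of the Ugt family together with Ugt2a3. Ugt2b1 stood at 499, 669, 684 and 312 CPM in CD_vehicle and 139, 142, 154 and 171 in CD_PFOA, against 518, 424, 458 and 328 in HFD_vehicle and 262, 161, 105 and 142 in HFD_PFOA. Vehicle and PFOA libraries did not overlap on either diet, and Ugt2b1 fell 3.57-fold (log2 -1.84 ± 0.24, edgeR adjusted p = 1.27e-05) and 2.58-fold (log2 -1.37 ± 0.24, edgeR adjusted p = 0.000405). None of the 50-base words of Ugt2b1 occurs in another gene. Ugt2b36 fell less. Ugt2b36 stood at 449, 610.2, 612 and 472 CPM in CD_vehicle and 369, 378, 418 and 419 in CD_PFOA, against 506, 495.5, 535 and 416 in HFD_vehicle and 396, 335.5, 295 and 319 in HFD_PFOA. Its falls of 1.35-fold and 1.45-fold (log2 -0.44 ± 0.12 and -0.54 ± 0.12, edgeR adjusted p = 0.00984 and 0.00297) came without overlap. Ugt2a3 fell from 185 ± 66.0 to 88.6 ± 12.6 CPM (log2 -1.06 ± 0.19, edgeR adjusted p = 0.000272) and from 119 ± 14.9 to 68.9 ± 10.47 CPM (log2 -0.79 ± 0.19, edgeR adjusted p = 0.00522).

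Ugt2b34, next to Ugt2b1 on the chromosome, rose instead. Ugt2b34 stood at 513, 511, 538 and 455 CPM in CD_vehicle and 715, 679, 699 and 767 in CD_PFOA, against 494, 459.9, 518 and 421 in HFD_vehicle and 676, 649.6, 595 and 598 in HFD_PFOA. It rose 1.42-fold (log2 0.50 ± 0.09, edgeR adjusted p = 0.000233) and 1.33-fold (log2 0.41 ± 0.09, edgeR adjusted p = 0.00216) with no overlap, and its share of the summed Ugt CPM went from 16.9% to 27.4% on the control diet and from 18.5% to 27.0% on the high-fat diet. Ugt2b35 fell on the high-fat diet (log2 -0.39 ± 0.13, edgeR adjusted p = 0.0405), a call lost without any 1 of HFD_vehicle 1 to 3, HFD_PFOA 3 and HFD_PFOA 4. Ugt2b5 (416 ± 74.3 CPM in CD_vehicle), Ugt2b37, Ugt2b38, the 2 Ugt3a genes, which use other sugars, and Ugt8a, the galactosyltransferase of myelin lipids, were called in no comparison of the edgeR fit reported here. Without CD_vehicle 1 and 4 together, edgeR called Ugt2b5 for the diet under vehicle. For Ugt2b5 the 95% interval of the log2 fold change was -0.33 to 0.24 on the control diet and -0.35 to 0.22 on the high-fat diet. Summed Ugt CPM was 2979 ± 466 in CD_vehicle and 2609 ± 155 in CD_PFOA, against 2562 ± 296 in HFD_vehicle and 2331 ± 276 in HFD_PFOA, with all pairs of groups overlapping.

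**Figure D4:**
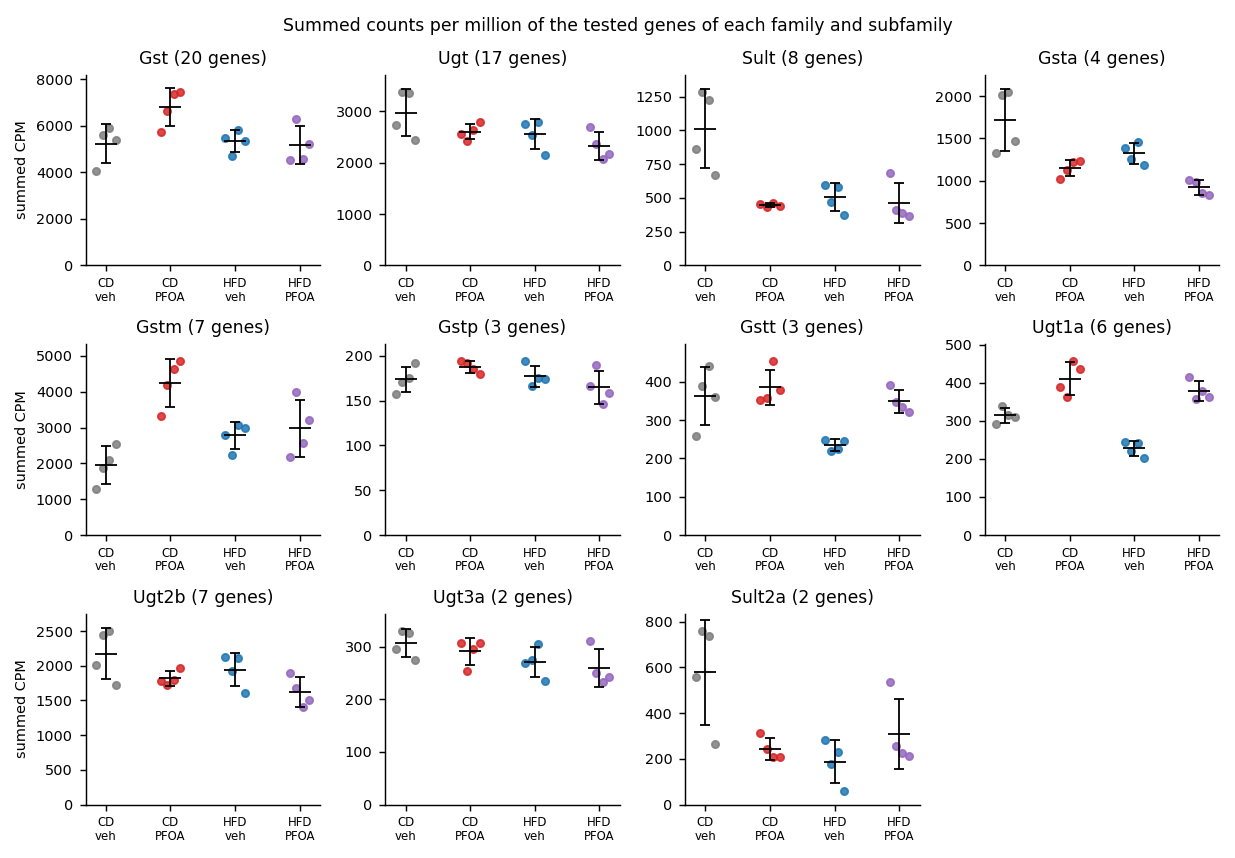
Summed CPM of the tested genes of each family and of each subfamily with 2 or more tested genes (y axis, from 0) in the 4 groups (x axis), with a dot per library and the mean and SD in black. Gstm is higher and Sult lower in CD_PFOA than in CD_vehicle without overlap, Ugt1a is higher with PFOA on both diets, and the Gst and Ugt totals overlap between all groups compared.

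Of the 8 tested sulfotransferases, neither the edgeR fit reported here nor DESeq2 called any higher with PFOA on either diet. Sult1a1, the main sulfotransferase for phenols, fell most clearly. Sult1a1 stood at 188, 269, 272 and 260.3 CPM in CD_vehicle and 35.4, 61.8, 94.2 and 97.25 in CD_PFOA, against 172, 153, 169 and 153 in HFD_vehicle and 26.35, 37.3, 47.65 and 35.0 in HFD_PFOA. The PFOA libraries of both diets lay far below the vehicle libraries, and the falls were 3.43-fold on the control diet (log2 -1.78 ± 0.23, edgeR adjusted p = 1.08e-05) and 4.42-fold on the high-fat diet (log2 -2.15 ± 0.24, edgeR adjusted p = 2.03e-06). Sult1b1, known for sulfating thyroid hormones, fell on the control diet from 27.2 ± 7.03 to 15.7 ± 4.345 CPM (log2 -0.79 ± 0.20, edgeR adjusted p = 0.00737), with log2 -0.25 ± 0.20 on the high-fat diet. Sult1c2, Sult1d1, Sult2a7 and Sult5a1 were called in no comparison of the edgeR fit reported here. For the diet under vehicle, DESeq2 called Sult2a7, as did edgeR with no filter on low counts. In the same comparison edgeR called Sult1c2 without CD_vehicle 1, and Sult1c2 and Sult1d1 without CD_vehicle 1 and 4 together. With PFOA on the high-fat diet, edgeR called Sult1d1 with only the 2 groups compared in the fit. With PFOA on the control diet, other edgeR settings called some of these genes lower. Among them were Sult1d1 with no filter, Sult1c2 and Sult1d1 without CD_vehicle 1, and Sult5a1 without CD_vehicle 1 and 4 together.

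Sult2a8, a liver sulfotransferase for bile acids, had the highest level per exon length of the Sult genes, at 99.5 CPM per kilobase over all libraries, ahead of Sult1a1 at 85.9, and took 56.9% of the summed Sult CPM in CD_vehicle. Sult2a8 stood at 551, 756, 734 and 259.9 CPM in CD_vehicle and 305, 237.5, 205 and 208 in CD_PFOA, against 282, 178, 226.2 and 60.5 in HFD_vehicle and 533, 256.5, 222.2 and 213.5 in HFD_PFOA. CD_vehicle 4 lay within the CD_PFOA range and HFD_PFOA 1 stood above all other libraries outside CD_vehicle. On the control diet Sult2a8 fell 2.41-fold (log2 -1.27 ± 0.38, edgeR adjusted p = 0.0187), a call that was lost without any 1 of CD_vehicle 2, CD_vehicle 3, CD_PFOA 3 and CD_PFOA 4 (adjusted p 0.0506 to 0.0536). On the high-fat diet the log2 fold change was 0.71 ± 0.38, edgeR adjusted p = 0.229, a value called higher with no filter on low counts (edgeR adjusted p = 0.0215). The male-biased list moved in the same libraries, lower in CD_vehicle 4 and higher in HFD_PFOA 1. With PFOA on the control diet it was mostly lower (14 of 20 called lower and 3 higher, median log2 fold change -2.22, where 24.4% of all genes were called). With PFOA on the high-fat diet, where the Sult2a8 value was above 0, 7 of 20 were called lower and 3 higher (median -0.76, where 16.5% of all genes were called). The part of this list in the Sult2a8 values was not tested.

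Sult1e1, the estrogen sulfotransferase, was low outside HFD_vehicle. Sult1e1 stood at 0.417, 0.366, 0.234 and 2.78 CPM in CD_vehicle and 0.374, 0.745, 0.801 and 0 in CD_PFOA, against 3.44, 4.03, 5.73 and 8.77 in HFD_vehicle and 1.14, 0.0819, 0.856 and 0.392 in HFD_PFOA. All HFD_vehicle libraries were above all others, and no HFD_PFOA library passed 1.14 CPM. Sult1e1 entered the test only through HFD_vehicle, where it is high, so the fitted values that involve this group (log2 -3.14 ± 0.82, edgeR adjusted p = 0.0107 for PFOA on the high-fat diet) describe how these libraries differ and are given no weight as a test. With 0 in 1 CD_PFOA library and 1 high library in CD_vehicle, the control-diet value was log2 -0.99 ± 0.83, edgeR adjusted p = 0.434, and it turned to log2 0.48 without CD_vehicle 4. Summed over the 8 tested genes, Sult CPM was 1012 ± 293 in CD_vehicle and 448.5 ± 13.9 in CD_PFOA, against 504 ± 104 in HFD_vehicle and 463 ± 149 in HFD_PFOA, and HFD_PFOA 1 was the only library outside CD_vehicle to reach the CD_vehicle range.

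**Figure D5:**
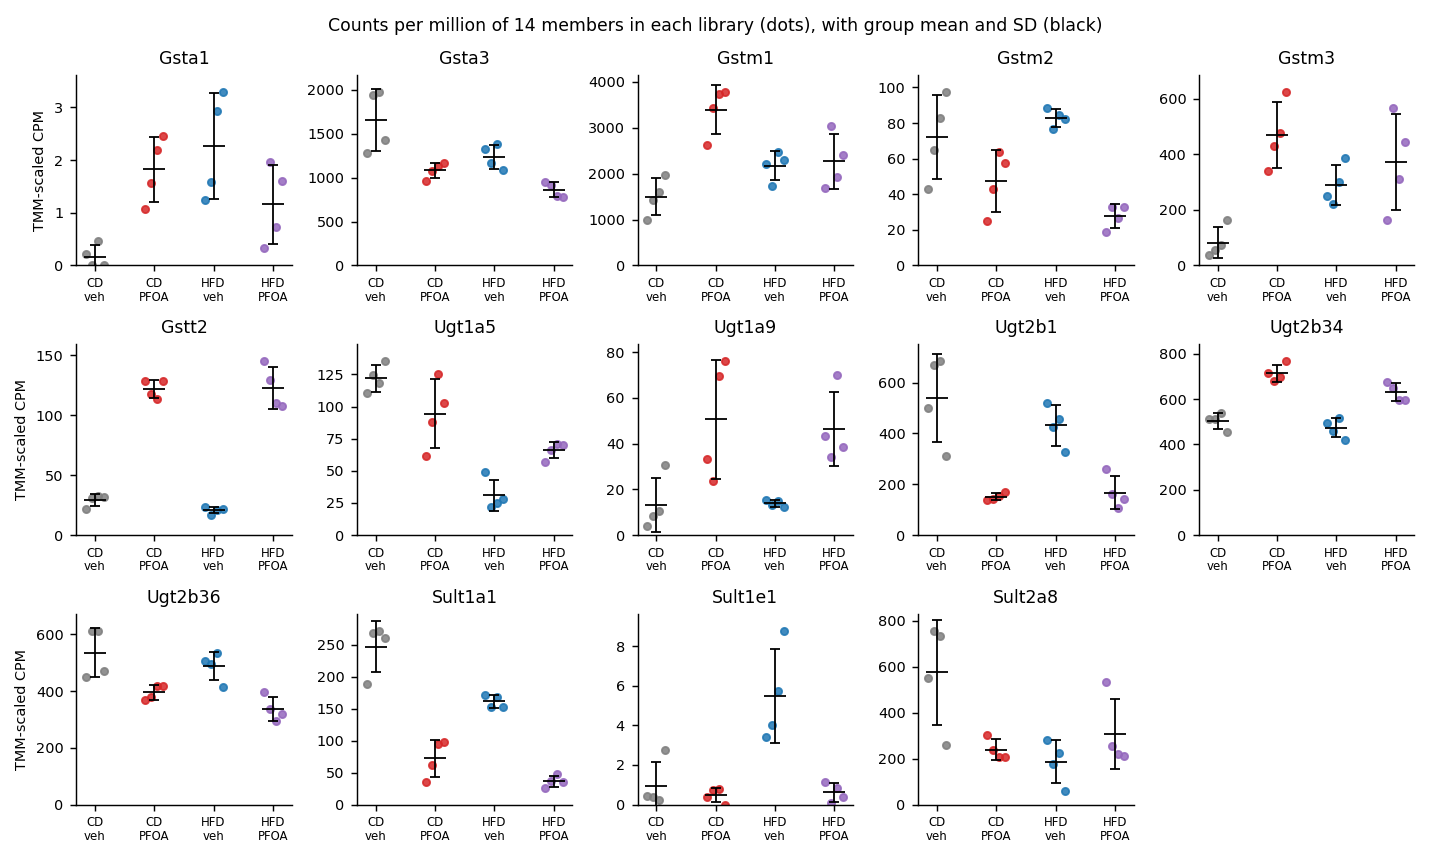
CPM of 14 members (panels) in each library (dots, y axis from 0) of the 4 groups (x axis), with mean and SD in black. Gstt2 shows separate vehicle and PFOA levels on both diets, Sult1a1 and Ugt2b1 the reverse order, Ugt1a5 its lowest values in HFD_vehicle (21.8 to 48.8), and Sult1e1 its highest there (3.44 to 8.77).

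The high-fat diet under vehicle moved fewer members, and most of the called ones fell: 3 rose and 10 fell of 45 (28.9%), where 10.4% of all genes were called, 5.19% higher and 5.21% lower. The median over the tested members was -0.20, beside -0.0286 for all genes. The 3 that rose were Gsta1 (log2 3.71 ± 0.80, edgeR adjusted p = 0.00568), Gstm3 (log2 1.815 ± 0.38, edgeR adjusted p = 0.00467) and Sult1e1 (log2 2.52 ± 0.79, edgeR adjusted p = 0.0477). Each had all HFD_vehicle libraries above all CD_vehicle libraries. Gsta1 and Sult1e1 had entered the test through the groups in which they are high, HFD_vehicle among them, so their values describe the libraries, and among the 37 members with counts throughout all groups 1 rose and 10 fell. Gsta1 became 4.89 without CD_vehicle 3, and Sult1e1 became 3.99 without CD_vehicle 4, while the call of Sult1e1 was lost without any 1 of the other 7 vehicle libraries (adjusted p 0.0612 to 0.159) and with DESeq2 (adjusted p = 0.0548).

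Of the 10 that fell, 7 were Gst genes: Gsta3, Gstm6, Gstm7, Gstt1, Gstt2, Gstt3 and Gstz1. All 3 tested theta-class genes were among them, Gstt3 with log2 -1.14 ± 0.21, edgeR adjusted p = 0.00163, Gstt1 with log2 -0.52 ± 0.12, edgeR adjusted p = 0.00953 and Gstt2 with log2 -0.49 ± 0.13, edgeR adjusted p = 0.0254, and their summed CPM went from 362.5 ± 76.0 to 234.5 ± 15.4. Thus Gstt2 was lower with the diet and higher with PFOA. Ugt1a5 fell 3.93-fold (log2 -1.97 ± 0.21, edgeR adjusted p = 2.39e-05), from 122 ± 10.4 to 30.9 ± 12.2 CPM. The other Ugt gene to fall was Ugt2a3 (log2 -0.64 ± 0.185, edgeR adjusted p = 0.0342), and the one Sult gene was Sult2a8 (log2 -1.62 ± 0.38, edgeR adjusted p = 0.0102), with HFD_vehicle 4 at 60.5 CPM the lowest of all 16 libraries.

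Single libraries moved this count. It was 7 without CD_vehicle 3, and 8 without HFD_vehicle 2 or without HFD_vehicle 4. Gsta3, Gstt2, Gstz1 and Ugt2a3 each lost the call without any 1 of CD_vehicle 2, CD_vehicle 3, HFD_vehicle 2 and HFD_vehicle 4. Gsta3 and Ugt2a3 also lost it without HFD_vehicle 1, Gstt2 without HFD_vehicle 3, and Gstm6 without CD_vehicle 3.

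The direction of the calls also depends on the scaling. Scaling by library totals moved the median of all genes by 0.2166, and the members then split into 7 higher and 4 lower: Gsta3, Gstm6, Gstt1, Gstt2, Gstz1 and Ugt2a3 were no longer called, and Gsta4, Gstm1, Gstm4 and Gstp1 were called higher. Gstm7, Gstt3, Ugt1a5 and Sult2a8 remained lower. The summed Ugt2b CPM of HFD_vehicle was 0.895 times that of CD_vehicle with TMM and 1.045 times with library totals. Of the macrophage and Kupffer cell markers, 8 of 15 were called higher in this comparison and 0 lower (53.3%, where 10.4% of all genes were called). Of 13 stellate cell markers (none at 0), 5 were higher and 0 lower (38.5%). The stellate markers summed to 429 to 776 CPM in CD_vehicle and 882 to 959 in HFD_vehicle. The 10 cholangiocyte markers (none at 0) summed to 67.5 to 120 CPM and 142 to 276, with 1 of 9 tested called higher (11.1%, near the share of all genes). Of the male-biased list 11 of 20 were lower and 1 higher (60%), and 7 of 10 hepatocyte markers were lower (70%). The part of each in the members' values was not tested.

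Under PFOA, edgeR called 0 of 45 between HFD_PFOA and CD_PFOA, where it called 0.0600% of all genes (0.0467% higher and 0.0133% lower), and 9 of 45 had an unadjusted p under 0.05, against 11.1% of all genes. DESeq2 called 1, Sult1a1, which edgeR gave at log2 -0.98 ± 0.23, edgeR adjusted p = 0.11, with 72.2 ± 29.3 CPM in CD_PFOA and 36.6 ± 8.76 in HFD_PFOA. Without CD_PFOA 1, its lowest library in that group, edgeR called it too (log2 -1.21, adjusted p = 0.0113). For Gstt2 the 95% interval of the diet difference under PFOA was -0.27 to 0.29, for Ugt1a9 it was -1.04 to 0.81 and for Gstm1 -0.99 to -0.16, so that the data bound Gstt2 more closely than the others. The Gstm1 interval, not adjusted for the number of genes, lay below 0. With no filter on low counts, edgeR called Gstm1, Gstm2 and Sult1a1 lower in HFD_PFOA, where 0.805% of all genes were called.

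Some genes called with PFOA on the control diet alone came near a call for a difference between diets in edgeR. The interaction was log2 -4.36 ± 1.04, edgeR adjusted p = 0.0953 for Gsta1, log2 -1.11 ± 0.27, edgeR adjusted p = 0.0967 for Gstm1, log2 -2.15 ± 0.52, edgeR adjusted p = 0.0973 for Gstm3 and log2 1.98 ± 0.53, edgeR adjusted p = 0.136 for Sult2a8. None of the 4 passed in this edgeR fit of all libraries, and whether they pass depends on the tool and the settings. With DESeq2 on all libraries, Gsta1 (adjusted p = 0.00092) and Gstm1 (adjusted p = 0.00602) passed, while Gstm3 (0.0594) and Sult2a8 (0.0686) did not. Gsta1 had entered the test through CD_PFOA and HFD_vehicle, the groups in which it is high. Its interaction values in every setting therefore describe the libraries and are given no weight as a test. With no filter on low counts edgeR called all 4, and it also called Gstm2. Without CD_vehicle 4, all 4 passed in edgeR (adjusted p 0.0378, 0.0142, 0.00186 and 0.0187), and so did Ugt1a5. Leaving out any other single library made none of the 4 pass. The share of all genes called for the interaction was 0.207% in the edgeR fit reported here. It was 1.29% with DESeq2, 1.04% with no filter and 2.29% without CD_vehicle 4.

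Other genes of the conjugation pathway were counted in lists drawn up with earlier results of these data known. In the list for UDP-glucuronic acid supply and glucuronide turnover, Ugp2, which makes UDP-glucose, fell with PFOA on both diets (log2 -0.9952 ± 0.16 and -1.34 ± 0.16). Ugdh, which oxidises UDP-glucose to UDP-glucuronic acid, rose on the control diet (log2 0.58 ± 0.10). In all, 3 of 6 rose and 1 fell on the control diet (66.7%, where 24.4% of all genes were called), and 0 rose and 2 fell on the high-fat diet (33.3%, against 16.5%). Not all 6 genes act in the supply of glucuronic acid, so these counts do not measure supply. In the PAPS list of 12 tested genes, 2 rose and 2 fell on the control diet (33.3%) and 3 rose and 0 fell on the high-fat diet (25%), shares near those of all genes. The PAPS synthase Papss2 was among those that rose on the high-fat diet (log2 0.62 ± 0.16, edgeR adjusted p = 0.00902). Of 16 tested genes of glutathione synthesis, recycling and breakdown, 4 rose and 4 fell on the control diet (50%) and 3 rose and 4 fell on the high-fat diet (43.8%). Cbs, the first enzyme from homocysteine to cysteine, fell on both (log2 -1.47 ± 0.11 and -1.07 ± 0.11), and Slc3a2, a subunit of amino acid exchangers, rose on both (log2 1.51 ± 0.12 and 1.28 ± 0.12).

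Of 11 genes listed for the transport of conjugates, not all of them transporters themselves, 5 rose with PFOA, 0 fell and 6 were not called on each diet. This share was 45.5%, where 24.4% of all genes were called on the control diet and 16.5% on the high-fat diet. The median log2 fold change of the list was 0.58 on the control diet and 0.30 on the high-fat diet. Abcc4 went from 3.485 to 86.7 CPM on the control diet (log2 4.63 ± 0.39, edgeR adjusted p = 3.22e-08) and from 10.25 to 67.8 CPM on the high-fat diet (log2 2.74 ± 0.35, edgeR adjusted p = 1.05e-05). Abcc3 and Abcg2 also rose on both diets (log2 0.86 ± 0.10 and 0.70 ± 0.12 on the control diet, 0.30 ± 0.09 and 0.69 ± 0.12 on the high-fat diet). Among 17 other conjugating enzymes 2 rose and 6 fell on the control diet (47.1%) and 2 rose and 4 fell on the high-fat diet (35.3%). Gnmt, a glycine methyltransferase, fell on both (log2 -1.54 ± 0.15 and -0.97 ± 0.15), as did Baat, which conjugates bile acids to amino acids (log2 -0.83 ± 0.10 and -0.64 ± 0.10). Of 9 tested transferases and relatives outside the naming rule, such as the microsomal Mgst genes, 1 rose and 2 fell on the control diet (33.3%, near the share of all genes), and edgeR called 0 on the high-fat diet.

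Index genes of the receptors moved with PFOA in the same libraries: 10 of 12 rose on the control diet (83.3%) and 7 of 12 on the high-fat diet (58.3%), and 0 fell on either. For this list and those that follow, 24.4% of all genes were called on the control diet and 16.5% on the high-fat diet. Cyp4a10, an index gene of PPARA, had a log2 fold change of 4.00 ± 0.17 and 4.54 ± 0.18, and Cyp2b10, that of CAR, 8.07 ± 0.44 and 5.52 ± 0.38. Of 24 genes for receptors and factors known to act on conjugating enzymes, 5 rose and 7 fell on the control diet (50%) and 1 rose and 8 fell on the high-fat diet (37.5%), with Ppara itself higher on the control diet (log2 0.86 ± 0.10) and Ahr, the aryl hydrocarbon receptor, lower on the high-fat diet (log2 -0.79 ± 0.11). Of 15 tested female-biased genes, 8 rose and 1 fell on the control diet (60%) and 5 rose and 1 fell on the high-fat diet (40%). These lists stand beside the members' values, and their relation to the members was not tested.

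The 14 members given in every library map as follows in GENCODE M21 on GRCm38, over the whole gene. Gsta1 (ENSMUSG00000074183.3) on chromosome 9 at 78230656–78242684, Gsta3 (ENSMUSG00000025934.15) on chromosome 1 at 21240589–21265661, Gstm1 (ENSMUSG00000058135.12) on chromosome 3 at 108012255–108017973, Gstm2 (ENSMUSG00000040562.12) on chromosome 3 at 107981702–107986453 and Gstm3 (ENSMUSG00000004038.9) on chromosome 3 at 107963696–107969283 make up the first set, with Gstt2 (ENSMUSG00000033318.7) on chromosome 10 at 75831114–75837424. The Ugt genes are Ugt1a5 (ENSMUSG00000089943.1) on chromosome 1 at 88166012–88218997, Ugt1a9 (ENSMUSG00000090175.1) on chromosome 1 at 88070800–88218997, Ugt2b1 (ENSMUSG00000035836.2) on chromosome 5 at 86916638–86926530, Ugt2b34 (ENSMUSG00000029260.15) on chromosome 5 at 86889767–86906937 and Ugt2b36 (ENSMUSG00000070704.10) on chromosome 5 at 87065927–87092555. The Sult genes are Sult1a1 (ENSMUSG00000030711.15) on chromosome 7 at 126672865–126676432, Sult1e1 (ENSMUSG00000029272.8) on chromosome 5 at 87575969–87591594 and Sult2a8 (ENSMUSG00000030378.15) on chromosome 7 at 14410686–14446769.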

How the data were processed

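The authors deposited 1 table of raw counts per gene (whole numbers) for 16 liver libraries, 1 per mouse. The submitters' processing notes list STAR 2.5.2b, Subread 1.6.0 (featureCounts), Trimmomatic 0.33, bcl2fastq 2.20.0.422 and GRCm38 (mm10). Library preparation kept no strand, per the labels' protocols, and reads from overlapping or antisense genes are therefore mixed. The annotation release, and whether reads shared between relatives were counted, could not be read from the sources used here.

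All 16 libraries entered 1 edgeR 4.0.16 quasi-likelihood fit in R 4.3.3, with a mean per group, TMM scaling and filterByExpr on the 4 groups. It left 12 residual degrees of freedom, and the biological coefficient of variation was 0.242. Benjamini-Hochberg adjustment ran over 14998 genes, and called means under 0.05. Log2 fold changes carry edgeR's prior count, which draws those of low genes toward 0. Each SE was taken from the fit as |log2 fold change| over √F, and 95% intervals use t with the 12 residual degrees of freedom. Libraries of a group differed by far more than reads drawn from 1 pool would, with 8.13 to 138 units of chi-square for each degree of freedom, so each counts as 1 replicate. The top of this range came from CD_vehicle 1, with 123, 122.5 and 138 against CD_vehicle 2, 3 and 4. The next highest pair, CD_vehicle 2 and 4, gave 53.7. The fit was tested on simulated data. Alternatives were other scalings, DESeq2 1.42.0, other filters and thresholds, and libraries left out.

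The members and lists were chosen with earlier results of these data known. Values in every library are given for the 5 called members of largest change per contrast (mean CPM of at least 1) and the 2 highest of each family. From the lists, up to 4 genes with the smallest p per contrast and the index genes are named. Members were placed on GENCODE M21, and 57 of 65 have a RefSeq promoter window, 40 of them tested.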

Additional observations from a re-analysis of the deposited data

Results flagged for a closer look

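Sult1e1 stood at 2.78 CPM in CD_vehicle 4, against 0.417 in the next library of that group, a gap that takes up nearly the whole range of the 4 libraries. Sult1a1 was 188 CPM in CD_vehicle 1, with the next library at 260.3. In HFD_PFOA 1, Sult2a8 was 533 CPM against 256.5 in the next library, and the summed Sult CPM was 685 against 412. These 4 came from 68 group ranges checked, of which chance alone would pick out about 1 in 20. The male-biased list deviated in CD_vehicle 4 and HFD_PFOA 1 too, by -0.82 and 0.85 log2 units, and its part in these values was not tested. The PFOA effect on Ugt1a5 differed between the diets by 1.46 on the log2 scale, by the test of the difference itself.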

How the results depend on the processing

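The number of members called stayed between 18 and 24 for PFOA on the control diet (20 in the fit reported) and between 15 and 20 for PFOA on the high-fat diet (18), under every alternative run, and no called value reversed its direction. For the diet under vehicle the 13 calls became 6 at an adjusted p under 0.01, 8 with only the 2 groups compared in the fit, and 7 to 15 when 1 library was left out, but 15 with DESeq2, 17 with no filter on low counts and 19 (3 higher, 16 lower) without CD_vehicle 1 and 4 together. For the diet under PFOA the count of 0 became 1 with DESeq2, 3 with no filter on low counts, and 0 to 1 with 1 library left out. The single interaction call (Ugt1a5) became 0 with library totals, 0 at an adjusted p under 0.01 and 0 with robust dispersion, 3 with DESeq2, 6 with no filter on low counts, 10 without CD_vehicle 1 and 4 together, and 0 to 5 with 1 library left out. The share of all genes called moved as well. For the diet under vehicle, 10.4% became 4.3% at an adjusted p under 0.01, 13.6% with DESeq2, 6.27% with no filter and 14.8% without CD_vehicle 1 and 4. For the diet under PFOA, 0.06% became 1.06% with DESeq2 and 0.805% with no filter. For the interaction, 0.207% became 1.29% with DESeq2, 1.04% with no filter and 4.08% without CD_vehicle 1 and 4. The cause of these shifts was not tested. Over all members, contrasts and alternatives, 3860 values kept their side of the threshold, 70 gained a call and 90 lost one. Scaling by library totals moved the median of all genes by 0.2166 for the diet under vehicle and by -0.1265 for the interaction. No paired analysis was possible because the labels give no replicate numbers. Counts at or near 0 limit the 20 members not tested and Gsta1 and Sult1e1, whose fitted changes rest on few reads in the lower group.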
